A study of Arabidopsis thaliana with 18 samples.

Results

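The mRNAs described here encode the translation factors of Arabidopsis thaliana outside the eIF3 complex. The members were the loci of eIF1, eIF1A, eIF2, eIF4 and eIFiso4, eIF5, eIF5A, eIF5B, eEF1A, eEF1B, eEF2, eRF1 and the poly(A)-binding proteins, chosen by name and not by any measured value. Earlier results of these data were known when that choice was made. Of these 45 loci, 24 had a probe set named here, on 20 of the 22746 probe sets of the array. They comprised 13 of 28 initiation factor loci on 13 probe sets, 8 of 11 elongation factor loci on 4 probe sets and all 3 poly(A)-binding protein loci on 3 probe sets. None of the 3 loci of the release factor eRF1 (AT5G47880, AT1G12920 and AT3G26618) had a probe set named here, so termination was not analysed.

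Initiation factors place the small ribosomal subunit at the start codon. eIF1 and eIF1A bind that subunit and take part in start codon recognition, eIF2 brings the initiator tRNA, eIF4E binds the mRNA cap, eIF4A is an RNA helicase, eIF5 activates GTP hydrolysis by eIF2 and eIF5B joins the large subunit. During elongation eEF1A delivers aminoacyl-tRNA and eEF1B recharges it with GTP, while poly(A)-binding proteins coat the mRNA tail and contact the cap-binding complex.

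RNA came from aerial parts of seedlings aged 10 to 12 days, kept at 22 °C on medium with 1% sucrose in days of 16 h light and 8 h dark, and harvested after 6 h of light. The rpl24b plants carried the stv1-1 allele in the Wassilewskija (Ws) ecotype, in which the gene of the large-subunit ribosomal protein RPL24B is deleted together with neighbouring genes, and they carry a CAPRICE transgene at that locus. The control was wild type (WT), whose ecotype the labels do not give. According to the methods of the study, wild-type plants were Columbia-0, yet the mutant is also said to have grown beside its corresponding wild type, so strain and genotype may not be told apart. From each of 3 plant samples per genotype, total RNA (TC), polysomal RNA (PL) and nonpolysomal RNA with monosomes (NP) were hybridised, giving 18 arrays in 6 groups of 3.

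All signals are on the log2 scale. Translation state (TL), the measure of polysome loading, is the PL signal minus the NP signal of the same plant sample, so a positive TL stands for a PL signal above the NP signal. Because arrays were scaled to each other, TL is relative to the other mRNAs of the same plant sample, and a shift of all mRNAs in or out of polysomes would not appear. A change is always rpl24b minus WT, given with its standard error (SE) from limma, and a probe set was called at an adjusted p under 0.05 over all probe sets. The p-values measure the spread between 3 plant samples of a genotype, and the number of arrays limits the precision. In whole shoots, fewer cells of a type and less RNA per cell cannot be told apart.

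The deleted gene checked the labels. RPL24B (AT3G53020) had TC signals of 3.79, 3.63 and 3.44 in rpl24b, against 9.98, 10.11 and 10.26 in WT. Medians of the arrays were 4.90 to 5.41 except for the NP array of WT replicate 2 at 4.65, and that array enters every NP and TL value of WT below. The shoot marker RCA gave signals of 12.25 to 13.99, and the root markers EXPA7 and EXPA18 stayed between 2.92 and 4.12.

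Polysome loading differed widely among the translation factors in both genotypes. In rpl24b, 15 of the 20 probe sets had a TL called away from 0, 8 above and 7 below, where 18.8% and 18.3% of all probe sets were called above and below. In WT the count was 13, with 6 above and 7 below, against 19.1% and 15.2% of all probe sets. Members were brighter than most, 18 of the 20 reaching or exceeding the median of the mean signals. Among the 11373 probe sets that bright, 32.5% were called above 0 and 26.4% below in rpl24b, against 8 and 6 of the 18 bright members, and 32.4% and 23.6% in WT, against 6 and 7 of the 18. The eIF1A mRNA of AT2G04520 had the highest mean TL in both genotypes. Its TL was 2.12, 2.13 and 1.15 in rpl24b, against 1.94, 2.10 and 1.54 in WT, and the genotypes overlapped. The lowest was that of PAB2 (AT4G34110), a poly(A)-binding protein, at -1.65, -1.41 and -1.48 in rpl24b, against -1.75, -1.85 and -1.80 in WT.

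**Figure D1:**
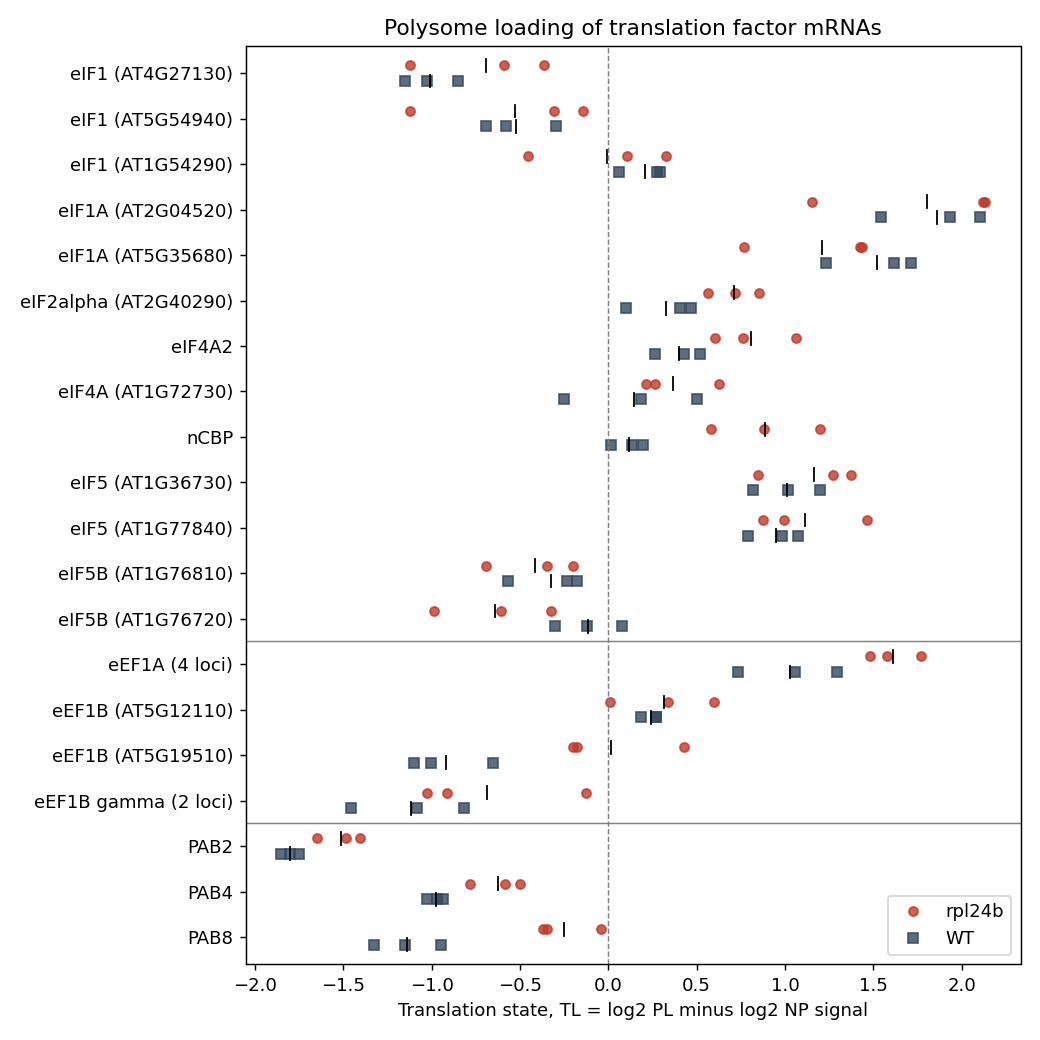
TL of each probe set (horizontal axis, log2 PL minus log2 NP signal) in each plant sample, rpl24b as red circles above WT as blue squares, with black ticks at the means of 3 samples; lines separate initiation factors, elongation factors and poly(A)-binding proteins. Both eIF1A and both eIF5 mRNAs lie right of 0 in all 6 samples, and all 3 poly(A)-binding protein mRNAs lie left of 0 in all 6.

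Paralogs of 1 factor were not loaded alike. Of 11 pairs of paralogs set side by side, TL differed in the same direction in all 6 plant samples in 7. Among eIF1 mRNAs, that of AT1G54290 had a TL above that of AT4G27130 by 0.68 ± 0.22 in rpl24b and 1.22 ± 0.27 in WT (SD, n = 3 each), and above that of AT5G54940 by 0.52 ± 0.23 in rpl24b and 0.73 ± 0.22 in WT. The eIF1A mRNA of AT2G04520 lay above that of AT5G35680 by 0.59 ± 0.18 in rpl24b and 0.34 ± 0.13 in WT. PAB4 (AT2G23350) lay above PAB2 by 0.89 ± 0.09 in rpl24b and 0.83 ± 0.09 in WT, and PAB8 (AT1G49760) by 1.26 ± 0.19 in rpl24b and 0.66 ± 0.17 in WT, all 3 being negative in TL. The TL of that second eIF1A was 1.43, 1.42 and 0.77 in rpl24b, against 1.71, 1.62 and 1.23 in WT. The eEF1B exchange subunit mRNA of AT5G12110 lay above that of AT5G19510 by 0.30 ± 0.21 in rpl24b and 1.16 ± 0.23 in WT. eIF4A2 lay above the eIF4A of AT1G72730 by 0.44 ± 0.06 in rpl24b and 0.26 ± 0.37 in WT, with a lowest difference of 0.014. By contrast, the eIF5 mRNAs of AT1G36730 and AT1G77840 differed by 0.05 ± 0.30 in rpl24b and 0.06 ± 0.28 in WT, above 0 in 3 of 6 samples. These pairs were set side by side after the data were seen and are a description, without a test. How often unrelated probe sets differ in this way was not counted.

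In the polysomes, part of the translation factor mRNAs were raised in the mutant. In PL, 8 of the 20 probe sets were called higher in rpl24b, where 10.8% of all probe sets were, and none was called lower, where 7.87% were. The median change in PL was 0.27 over the members and 0.00 over all probe sets. In TC, 4 of 20 were called higher and none lower, against 8.4% and 7.91% of all probe sets, with a median change of 0.15 over the members and 0.03 over all. In NP, 1 was called higher and 2 lower, against 5.21% and 3.39%, with medians of 0.08 over the members and 0.08 over all. Among the 11373 brighter probe sets, 15.6% were called higher in PL and 11.1% in TC, against 8 and 4 of the 18 bright members. None of these calls reached a 2-fold change, which 2.88% of all probe sets passed in PL, 2.91% in TC and 3.47% in NP together with an adjusted p under 0.05.

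**Figure D2:**
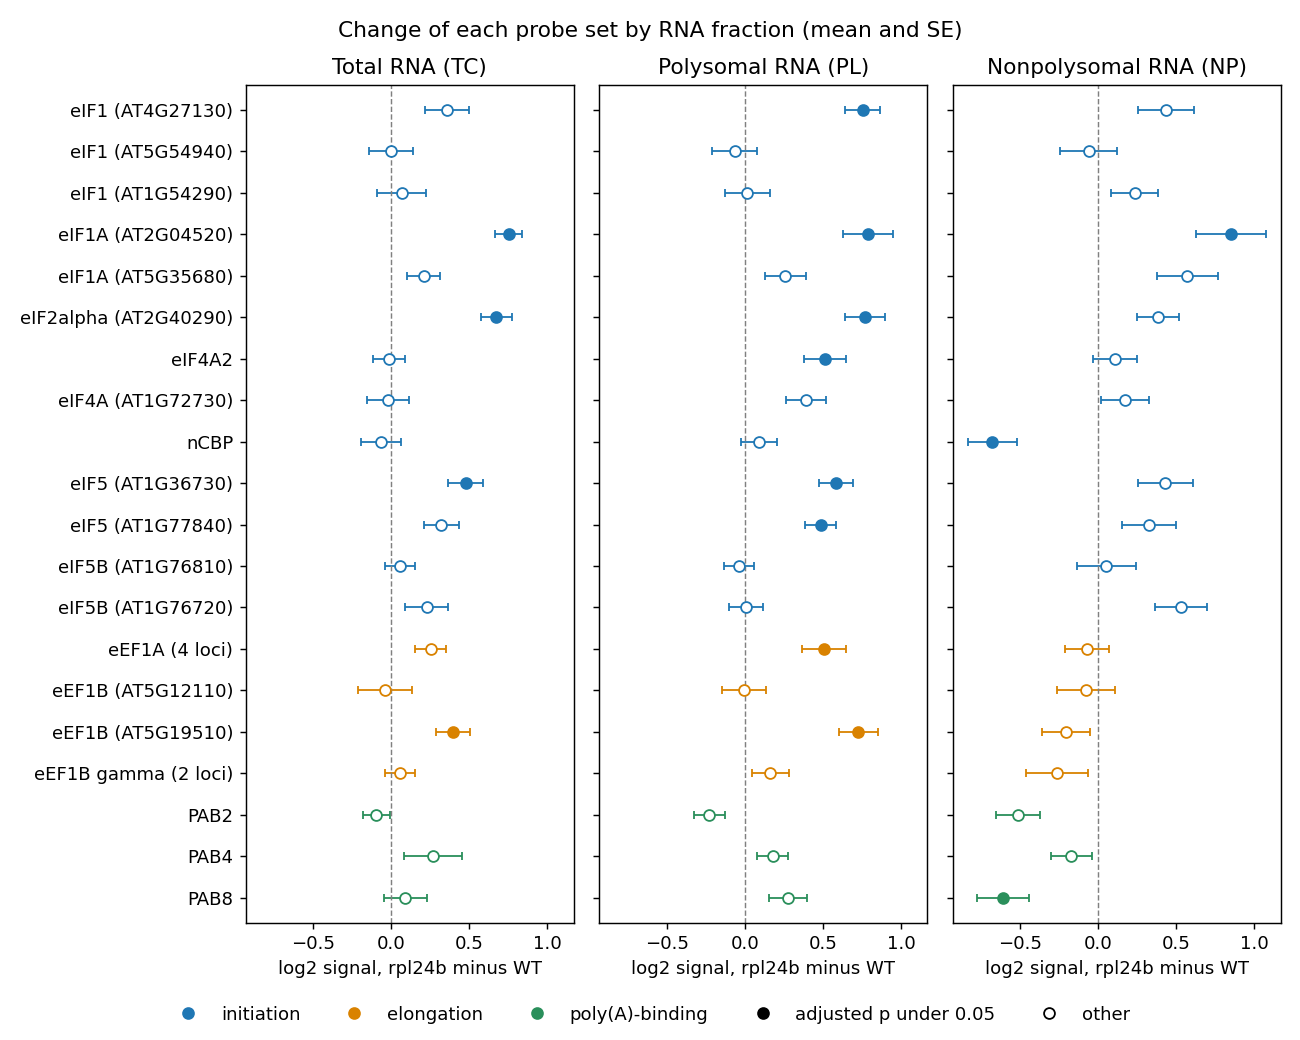
Change of each probe set (horizontal axis, log2 signal in rpl24b minus WT, mean and SE) in TC, PL and NP, coloured by class, filled where the adjusted p was under 0.05. The PL panel holds 8 filled points, all right of 0, and the NP panel has initiation factors mostly right of 0 and all elongation factors and poly(A)-binding proteins left of it.

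Counted without a model, the genotypes did not overlap in PL for 12 of 20 members, 11 of them higher in rpl24b, where 34.4% of all probe sets did not overlap. In TC this held for 9 members, 8 of them higher, against 34.2% of all probe sets. In NP it held for 9 members, 5 higher and 4 lower, against 27.7%, and in TL for 9 members, 8 higher and 1 lower, against 18.1%.

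The only initiation factor called higher in every fraction was eIF1A of AT2G04520. Its TC signal was 9.77, 9.80 and 9.71 in rpl24b, against 8.98, 9.06 and 8.98 in WT. In PL it was 10.54, 10.48 and 10.15 in rpl24b, against 9.93, 9.46 and 9.41 in WT, and in NP 8.42, 8.34 and 9.00 in rpl24b, against 8.00, 7.36 and 7.86 in WT. Every rpl24b sample lay above every WT sample in all 3 fractions, which also held for eIF2alpha and the eIF1 of AT4G27130. The change was 0.75 ± 0.09 in TC (adjusted p = 0.000909), 0.79 ± 0.16 in PL (adjusted p = 0.00717) and 0.85 ± 0.22 in NP (adjusted p = 0.0442), and that in TL was -0.06 ± 0.26 (adjusted p = 0.95). The call in NP ended on leaving out any 1 of the 6 plant samples, with adjusted p between 0.0504 and 0.145. The other eIF1A, AT5G35680, changed by 0.21 ± 0.11 in TC (adjusted p = 0.235), 0.26 ± 0.13 in PL (adjusted p = 0.216) and 0.57 ± 0.19 in NP (adjusted p = 0.105), and was not called, except in PL without WT replicate 1 (adjusted p = 0.0477).

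Of the 3 eIF1 mRNAs measured, 1 was raised. In PL, AT4G27130 had signals of 8.85, 8.73 and 8.62 in rpl24b, against 8.13, 7.91 and 7.89 in WT, without overlap. Its change in PL was 0.75 ± 0.11 (adjusted p = 0.00153). In TC it was 0.36 ± 0.14 (adjusted p = 0.127), a call with the replicate number as a block (adjusted p = 0.0474). In NP it was 0.435 ± 0.179 (adjusted p = 0.183), also without overlap, and in TL 0.32 ± 0.21 (adjusted p = 0.584). The TL of AT5G54940 was -0.31, -0.15 and -1.12 in rpl24b, against -0.58, -0.30 and -0.69 in WT. For AT1G54290 it was 0.33, 0.10 and -0.45 in rpl24b, against 0.06, 0.28 and 0.29 in WT. Changes of AT5G54940 and AT1G54290 in PL were -0.07 ± 0.14 and 0.02 ± 0.14, and both overlapped between genotypes in every fraction. For rpl24b replicate 3 the TL of all 3 eIF1 and of both eIF1A, eIF5 and eIF5B mRNAs was the lowest of the mutant's 3 samples. Those of eIF2alpha, both eIF4A, nCBP, all elongation factor probe sets, PAB4 and PAB8 were the highest, and that of PAB2 lay between.

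The alpha subunit of eIF2 (AT2G40290), the subunit whose phosphorylation restrains initiation, was raised in TC and PL. In TC its signal was 8.41, 8.38 and 8.54 in rpl24b, against 7.80, 7.65 and 7.86 in WT. Its PL signal was 8.10, 8.00 and 8.38 in rpl24b, against 7.44, 7.23 and 7.50 in WT. The genotypes did not overlap in any fraction or in TL. The change was 0.67 ± 0.10 in TC (adjusted p = 0.00299), 0.77 ± 0.13 in PL (adjusted p = 0.00265), 0.38 ± 0.14 in NP (adjusted p = 0.122) and 0.39 ± 0.18 in TL (adjusted p = 0.401).

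Both eIF5 mRNAs were raised in the polysomes. For AT1G36730 the PL signal was 8.69, 8.62 and 8.44 in rpl24b, against 8.03, 7.91 and 8.06 in WT, a change of 0.58 ± 0.11 (adjusted p = 0.0048). For AT1G77840 it was 8.32, 8.30 and 8.23 in rpl24b, against 7.77, 7.73 and 7.90 in WT, a change of 0.49 ± 0.10 (adjusted p = 0.0079). Neither overlapped between genotypes in PL. In TC, AT1G36730 rose by 0.48 ± 0.11 (adjusted p = 0.0219), a call lost without rpl24b replicate 3 (adjusted p = 0.0574), without WT replicate 2 (adjusted p = 0.0871) and without WT replicate 3 (adjusted p = 0.0622). AT1G77840 rose by 0.32 ± 0.11 in TC (adjusted p = 0.0863), not called but without overlap. In NP the change was 0.43 ± 0.18 for AT1G36730 and 0.32 ± 0.17 for AT1G77840, neither called. The TL change of AT1G36730 was 0.15 ± 0.19 and that of AT1G77840 0.16 ± 0.20, neither called.

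Among the cap-binding and helicase factors, the called changes lay in 1 gradient fraction each. eIF4A2 (AT1G54270) had PL signals of 9.48, 9.42 and 9.87 in rpl24b, against 9.06, 8.98 and 9.19 in WT, while its TC signals overlapped. Its change in PL was 0.51 ± 0.13 (adjusted p = 0.0237), in TC -0.02 ± 0.10 and in TL 0.41 ± 0.18 (adjusted p = 0.384). The call in PL was lost without rpl24b replicate 3 (adjusted p = 0.0562), WT replicate 1 (adjusted p = 0.067) or WT replicate 2 (adjusted p = 0.0796). The eIF4A of AT1G72730, near the median of all probe sets in PL, had PL signals of 4.87, 4.86 and 5.18 in rpl24b, against 4.60, 4.40 and 4.73 in WT, and its change of 0.39 ± 0.13 (adjusted p = 0.0617) passed only with the replicate block (adjusted p = 0.0278).

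The cap-binding protein nCBP (AT5G18110), of the eIF4E family, was lower in the nonpolysomal fraction of the mutant. Its NP signal was 7.31, 7.40 and 7.07 in rpl24b, against 8.02, 8.05 and 7.76 in WT, while its PL signals overlapped. In TC, where it had the lowest change of the initiation factors, its signal was 8.35, 8.08 and 8.20 in rpl24b, against 8.50, 8.22 and 8.10 in WT, again with overlap. The NP change was -0.68 ± 0.16 (adjusted p = 0.0254), lost without rpl24b replicate 1 (adjusted p = 0.0707), rpl24b replicate 2 (adjusted p = 0.0513), rpl24b replicate 3 (adjusted p = 0.0955) or WT replicate 1 (adjusted p = 0.0827). Its TL was 0.88, 0.58 and 1.20 in rpl24b, against 0.01, 0.13 and 0.20 in WT. These did not overlap, and the TL change of 0.77 ± 0.19 had an adjusted p of 0.0965.

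Both eIF5B probe sets were near or below the median of all probe sets in the gradient fractions. AT1G76810 averaged 4.65 ± 0.05 in rpl24b and 4.69 ± 0.03 in WT in PL (SD, n = 3 each). By rank, its mean signal was brighter than 82.5% of probe sets in TC, but only 46.7% in PL and 51.2% in NP. AT1G76720, whose probe set also matches AT1G76820, averaged 3.47 in PL and 3.84 in NP, brighter than 29.5% and 35.1% of probe sets. In rpl24b the deleted RPL24B gave 3.30, 3.58 and 3.38 in PL and 4.50, 3.75 and 3.41 in NP. The TL of AT1G76720 thus rests on signals as low as those of a deleted gene. Its TL change was the most negative of the members. Its TL was -0.32, -0.61 and -0.99 in rpl24b, against -0.30, 0.08 and -0.12 in WT, a change of -0.52 ± 0.20 (adjusted p = 0.304).

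Of the elongation factors, eEF1A and 1 eEF1B exchange subunit were raised in PL and not called in NP. The eEF1A probe set, among the brightest of the array, matches AT1G07920, AT1G07930, AT1G07940 and AT5G60390, so these paralogs cannot be told apart. Its PL signal was 12.96, 12.99 and 13.38 in rpl24b, against 12.57, 12.44 and 12.80 in WT, a change of 0.51 ± 0.14 (adjusted p = 0.032). That call was lost without rpl24b replicate 3 (adjusted p = 0.0852), WT replicate 1 (adjusted p = 0.0881) or WT replicate 2 (adjusted p = 0.11). NP signals overlapped, with a change of -0.07 ± 0.14. The TC signal of eEF1A was 13.07, 13.08 and 13.27 in rpl24b, against 12.93, 12.79 and 12.94 in WT, without overlap. Its change in TC was 0.25 ± 0.10 (adjusted p = 0.134). TL was 1.48, 1.58 and 1.77 in rpl24b, against 1.06, 0.74 and 1.30 in WT, without overlap, a change of 0.58 ± 0.19 (adjusted p = 0.214).

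The eEF1B exchange subunit of AT5G19510 had the largest TL change among the members. In PL its signal was 11.23, 11.20 and 11.58 in rpl24b, against 10.56, 10.56 and 10.71 in WT, and in TC 10.92, 10.98 and 11.10 in rpl24b, against 10.73, 10.46 and 10.62 in WT. TL was -0.20, -0.18 and 0.43 in rpl24b, against -1.01, -1.10 and -0.65 in WT. All rpl24b samples lay above all WT samples in these 3 measures, and NP overlapped. The change was 0.73 ± 0.13 in PL (adjusted p = 0.00315), 0.40 ± 0.11 in TC (adjusted p = 0.0358) and 0.94 ± 0.21 in TL (adjusted p = 0.0717). With the replicate number as a block the TL change was called (adjusted p = 0.0461). In TC the call ended on leaving out any 1 plant sample other than WT replicate 1, with adjusted p between 0.0587 and 0.13 (rpl24b replicates 1, 2 and 3 and WT replicates 2 and 3). Its paralog AT5G12110 had a TL of 0.34, 0.01 and 0.60 in rpl24b, against 0.19, 0.27 and 0.27 in WT, and TC signals of 7.34, 6.85 and 7.58 in rpl24b, against 7.23, 7.25 and 7.40 in WT, with overlap in both. It was not called in any fraction, with changes of -0.01 ± 0.14 in PL, -0.04 ± 0.17 in TC and 0.07 ± 0.19 in TL. The gamma subunit, on a probe set shared by AT1G09640 and AT1G57720, changed by 0.16 ± 0.12 in PL and 0.43 ± 0.25 in TL and was not called either.

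**Figure D3:**
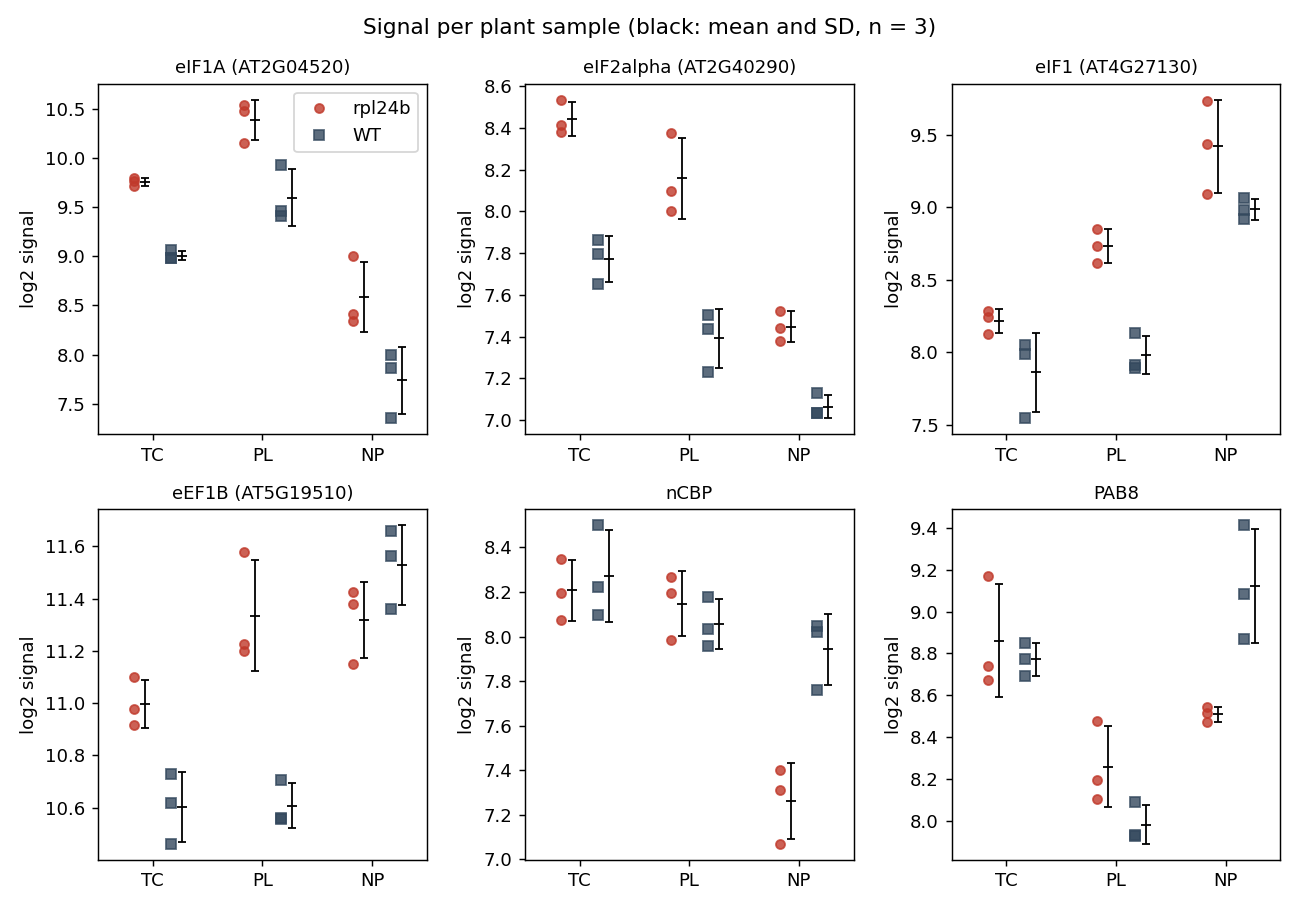
Log2 signal (vertical axis, a separate range in each panel) of 6 members in TC, PL and NP, rpl24b as red circles left of WT as blue squares, with black marks for mean and SD of 3 plant samples. The genotypes separate in all 3 fractions for eIF1A, eIF2alpha and eIF1, in TC and PL for the eEF1B subunit, in NP alone for nCBP, and in PL and NP in opposite directions for PAB8.

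All 3 poly(A)-binding protein mRNAs had a TL below 0 in every plant sample, and that of PAB8 was nearer to 0 in the mutant. PAB8 had a TL of -0.37, -0.35 and -0.04 in rpl24b, against -1.15, -1.33 and -0.94 in WT. Its NP signal was 8.47, 8.54 and 8.51 in rpl24b, against 9.08, 9.41 and 8.87 in WT, and its PL signal 8.10, 8.20 and 8.48 in rpl24b, against 7.93, 8.09 and 7.93 in WT. The genotypes did not overlap in any of these, and TC overlapped. PAB8 was the only member of 20 called in TL, where 0.448% of all probe sets were called higher and 0.448% lower, and 0.607% in either direction with at least a 2-fold change. Its TL change was 0.89 ± 0.18 (adjusted p = 0.0435), made up of 0.28 ± 0.12 in PL (adjusted p = 0.154) and -0.61 ± 0.17 in NP (adjusted p = 0.0492). In TL the call was lost with the replicate block (adjusted p = 0.0524) and without any 1 of the 6 plant samples, where the change was 0.78 to 0.99 and the adjusted p 0.0661 to 0.184. In NP it was lost with the block (adjusted p = 0.0715) and without any 1 sample other than WT replicate 3 (adjusted p 0.0915 to 0.141). Without WT replicate 2, whose NP array had the low median, the change was 0.80 in TL and -0.47 in NP.

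Neither PAB2 nor PAB4 was called in any fraction. The NP signal of PAB2 was 10.62, 10.51 and 10.48 in rpl24b, against 10.92, 11.15 and 11.08 in WT, without overlap, a change of -0.52 ± 0.14 (adjusted p = 0.0509). Its PL signal was also lower in every rpl24b sample, by 0.23 ± 0.10 (adjusted p = 0.152), and its TL change was 0.29 ± 0.16. PAB4 had a TL of -0.79, -0.59 and -0.50 in rpl24b, against -1.02, -0.97 and -0.94 in WT, a change of 0.35 ± 0.17 (adjusted p = 0.414) with no overlap. In TC these paralogs marked both ends of the class. The TC signal of PAB4 was 8.88, 9.06 and 9.62 in rpl24b, against 8.99, 8.74 and 9.03 in WT, a change of 0.27 ± 0.18 (adjusted p = 0.388). That of PAB2 was 9.89, 9.90 and 9.93 in rpl24b, against 10.05, 9.97 and 10.00 in WT, a change of -0.10 ± 0.09 (adjusted p = 0.513). PAB4 overlapped between genotypes, with rpl24b replicate 3 above the other 5 samples, and PAB2 did not overlap.

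**Figure D4:**
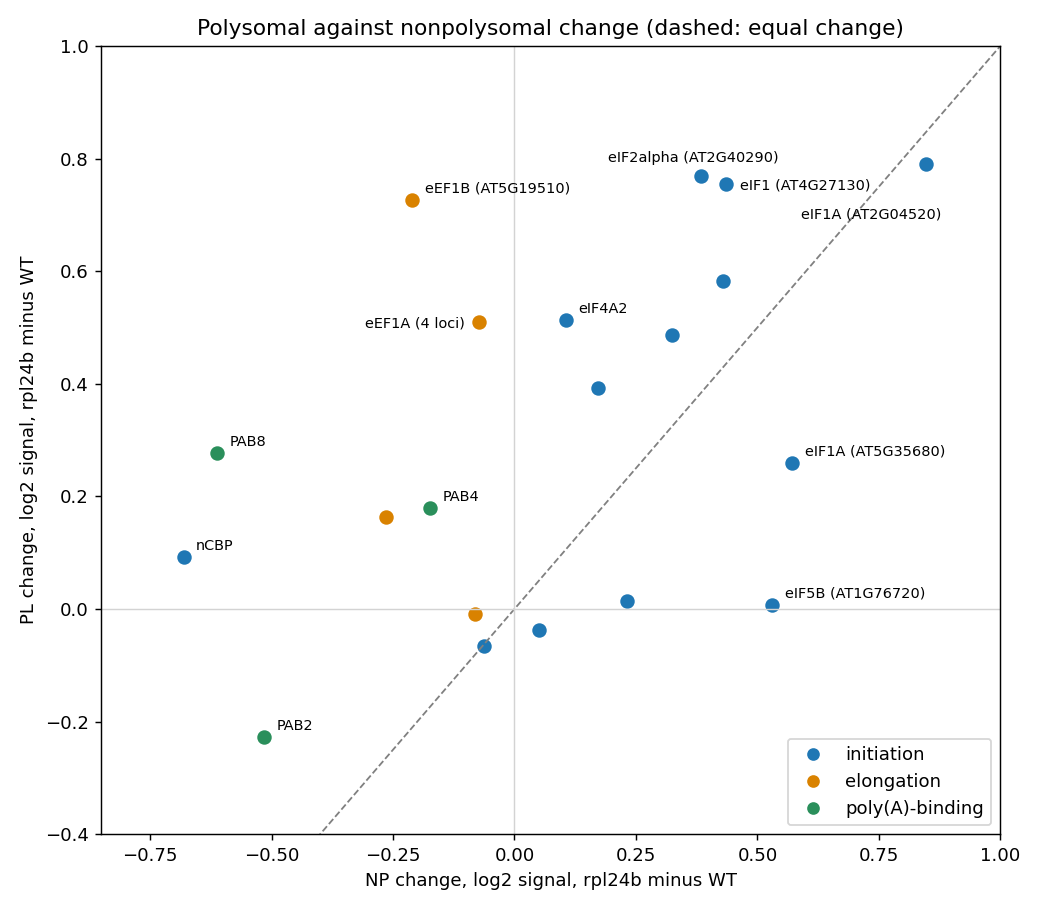
Change in PL (vertical axis) against change in NP (horizontal axis), both log2 signal in rpl24b minus WT, one point per probe set, with the dashed line where both are equal and TL does not change. Of the 20 points 14 lie above the line, among them all 4 elongation factors and all 3 poly(A)-binding proteins, and 6 lie on or below it, all of them initiation factors.

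Class medians lay apart by fraction. Among initiation factors the median change was 0.39 in PL and 0.32 in NP, with 11 of 13 above 0 in each, and their median TL change was 0.15. Over all 22746 probe sets, 11514 changes were above 0 in PL and 13970 in NP. For the 4 elongation factor probe sets the medians were 0.34 in PL, -0.15 in NP with none above 0, and 0.51 in TL. In all 4 the TL of rpl24b replicate 3 was the highest of the mutant's samples. Without it the TL change was -0.07 for AT5G12110 and 0.15 for the gamma subunit, and 0.50 for eEF1A and 0.73 for AT5G19510. The 3 poly(A)-binding protein probe sets had medians of 0.18 in PL, -0.52 in NP with none above 0, and 0.35 in TL. Over all members the median TL change was 0.25, with 14 above 0 and 6 below, and over all probe sets it was -0.07. Samples of equal replicate number were also set against each other, although the labels do not say that they were grown together. The median TL change of the initiation factors was then 0.26, 0.15 and -0.20 in replicates 1, 2 and 3. That of the elongation factors was 0.29, 0.69 and 0.58, and that of the poly(A)-binding proteins 0.24, 0.45 and 0.44. Over all probe sets the median TL change was -0.001, -0.165 and 0.0 in replicates 1, 2 and 3. The 3 classes are described by their medians and were not tested against each other.

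Other parts of the translation apparatus gave a scale for these values. Of 216 probe sets of cytosolic ribosomal proteins, 165 were called higher and 4 lower in PL, with a median change of 0.54, and 122 higher and 4 lower in TC, with a median of 0.43. The deleted RPL24B is among the 4 called lower in both. In TL, 18 of the 216 were called higher and 3 lower, with a median change of 0.22. The members' median TL change was 0.25, with 1 of 20 called. By class it was 0.15 for initiation factors, 0.51 for elongation factors and 0.35 for poly(A)-binding proteins. Among 6 probe sets of eIF3 subunits none was called in PL, TC, NP or TL, although all 6 TL changes were above 0, from 0.38 to 0.63, and 4 had an unadjusted p under 0.05 in limma. Over all 22746 probe sets, 9136 TL changes were above 0 and 2839 had an unadjusted p under 0.05 in either direction. Of 12 probe sets of further translation factors that are not members, 2 were called higher (AT2G18720 by 1.34 ± 0.14 and AT2G34970 by 0.33 ± 0.10) and 2 lower in PL (AT4G18300 by -0.46 ± 0.14 and the probe set of AT1G53880 and AT1G53900 by -0.50 ± 0.15), against 10.8% and 7.87% of all probe sets.

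For 21 members no probe set was named here. They were the eIF1 AT5G54760, eIF2 alpha, beta and gamma subunits AT5G05470, AT5G20920 and AT1G04170, eIF4A1 (AT3G13920), both eIF4B (AT3G26400 and AT1G13020), eIF4E (AT4G18040), eIFiso4E (AT5G35620), eIF4G (AT3G60240), both eIFiso4G (AT5G57870 and AT2G24050), the 3 eIF5A (AT1G13950, AT1G26630 and AT1G69410), the eEF1B exchange subunits AT1G30230 and AT2G18110, eEF2 (AT1G56070) and the eRF1 loci given above.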

How the data were processed

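The authors extracted RMA signals per array with the affy package, and the deposited values are on the log2 scale. The deposited translation states, also log2, differed from PL minus NP by at most 0.001, and the 12 PL and NP signal columns beside them in the same table were not used. Versions of the affy package and of R are not given in the sources used here. Median signals were 5.34 to 5.41 in TC, 4.90 to 4.95 in PL and 4.65 to 5.07 in NP arrays.

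Gene names came from GEO's platform annotation (13938 probe sets) and from the probe set and locus columns of the study's supplementary lists (553 more), and 8255 stayed unnamed here. Of the members, 4 (nCBP, PAB2, PAB4 and PAB8) were named only from those lists. A shared probe set is named by all its loci.

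TC, PL, NP and TL were compared between 3 samples of each genotype by lmFit and eBayes of limma 3.58.1 (R 4.3.3) over all 22746 probe sets, with Benjamini-Hochberg adjustment. A call was an adjusted p under 0.05, and the study's 2-fold minimum was set beside it. TL against 0 was tested in the same fit. In simulated data over 22746 probe sets, a TL change of 0.5 was called in 12% and one of 1 in 78%, and a TC change of 0.5 in 42%. Only a small part of the simulated probe sets was changed, and the noise was normal and independent. These shares belong to that setting and need not hold for the arrays.

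The text gives single samples for called members, for the highest and lowest change in TL and TC of each class, for the highest and lowest TL, and for paralogs where they differ. The members and lists were chosen with earlier results of these data known. Other lists were eIF3 subunits (6 probe sets for 17 loci), further translation factors (12 for 30) and shoot and root markers (1 for 7 and 2 for 6). Translation factor kinases had no probe set named here.

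Both genotypes were grown side by side, but the labels do not say whether equal replicate numbers mark samples grown together. The main fits held no term for the replicate number. From the group means, samples of 1 number deviated with correlations of 0.14 to 0.39 in TC, 0.05 to 0.28 in PL, -0.19 to 0.06 in NP and -0.05 to 0.03 in TL. A replicate block was an alternative, as were centring, quantile normalization, eBayes with trend and robust, a filter on dim probe sets, probe sets of 1 locus, the fold minimum, the deposited translation states and leaving out each plant sample.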

Additional observations from a re-analysis of the deposited data

Results flagged for a closer look

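The TL change of PAB8 was flagged because the PL-to-NP contrast differed between the genotypes by a test of the difference itself. It was 0.89 on the log2 scale, with a mean TL of -0.25 ± 0.18 in rpl24b and -1.14 ± 0.19 in WT (SD, n = 3 each), and all 3 rpl24b samples were higher. The settings in which the call was lost are given in the paragraph on poly(A)-binding proteins and in the section that follows.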

How the results depend on the processing

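The count of members called in TL was 1, and it was 3 of 20 with each array centred on its median and 3 of 17 tested with the filter on dim probe sets, where nCBP and the eEF1B subunit AT5G19510 joined PAB8. It was 0 with trend and robust (adjusted p = 0.0503 for PAB8), 0 with the 2-fold minimum and 0 without any 1 plant sample. With the replicate block it was again 1, but this was the eEF1B subunit AT5G19510 in place of PAB8. Centring put the median change in TL over all probe sets at 0.05, against -0.07 as deposited. With the 2-fold minimum the counts were 0 in TC, PL and NP, 6 for TL away from 0 in rpl24b and 8 in WT. Leaving out 1 plant sample gave 2 to 4 members in TC (2 without rpl24b replicate 3, WT replicate 2 or WT replicate 3), 6 to 8 in PL and 0 to 2 in NP (0 without any rpl24b replicate or WT replicate 1). The replicate block gave 5 in TC, 9 in PL and 2 in NP. The NP change of PAB2 passed with centring (adjusted p = 0.0356), quantile normalization (0.0463), trend and robust (0.0172) and the filter (0.0321). The difference in TL between the eIF5 paralogs ran from -0.007 to 0.12 on leaving out a sample, and that between the eIF5B paralogs, 0.007 over all samples (0.23 in rpl24b and -0.21 in WT), was -0.029 with quantile normalization and -0.073 to 0.062 on leaving out a sample. For changes between genotypes, the replicate block altered no call other than those given here and in the report. Causes were not tested. The number of arrays limited the precision.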
